A study of Rattus norvegicus with 6 samples.

Results

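The genes described here make, take up, store and export cholesterol in rat liver. There are 30 of them among 15443 genes that the arrays name. They were chosen by gene name as a pathway, with earlier results of these data known. Each gene was found through the RefSeq accession of its probes, which gave 34 probes for the 30 genes. By role they are 18 enzymes of sterol synthesis, 4 genes that sense sterols and control the transcription factor SREBP2, 5 genes of uptake, transport inside the cell and esterification, and 3 exporters.

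Liver RNA came from 3 normal rats and from 3 rats whose liver had become fibrotic through ligation of the bile duct, a surgical block of bile flow that causes cholestasis and scarring. Each animal had 1 Agilent array of 1 colour. The strain, sex and age of the rats, the time after ligation and any sham operation of the normal rats are not given in the sources used here. The comparison asks how these genes differ between fibrotic and normal liver. Each array held 58717 spots other than controls, with 67.2% to 70.0% of them well above background in normal and 68.8% to 78.0% in fibrotic livers, and 0 were saturated.

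Cells build cholesterol from acetyl units through mevalonate, isoprenoids, squalene and lanosterol, and then trim the lanosterol ring until cholesterol remains. The SREBP2 protein switches on most genes of this route when sterols run low. It is carried to its activating proteases by Scap, and the Insig proteins hold it back when sterols are plentiful. The liver takes sterol up from lipoproteins, stores it as esters, uses it for bile acids and secretes the rest into bile, so a blocked duct closes a main exit for sterol.

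RefSeq promoter windows of the GRCr8 build were at hand for 24 of the 30 genes, with none for Sqle, Fdft1, Soat2, Stard4, Scarb1 and Pmvk, and 5 stretches are shown for the ends of the response. They lie before Tm7sf2, the synthesis enzyme with the largest difference, before Ebp, another enzyme that was lower, before Idi1, which has the smallest difference among synthesis enzymes with a window, before the exporter Abca1, and between the exporters Abcg8 and Abcg5. Ebp was added after its values were seen. Capitals mark the CCAAT box (CCAAT on either strand, read ATTGG on the other), the GC box (GGGCGG) and the short SREBP core (CACNCCAC).
Tm7sf2, chr1:212789542-212789791, minus strand: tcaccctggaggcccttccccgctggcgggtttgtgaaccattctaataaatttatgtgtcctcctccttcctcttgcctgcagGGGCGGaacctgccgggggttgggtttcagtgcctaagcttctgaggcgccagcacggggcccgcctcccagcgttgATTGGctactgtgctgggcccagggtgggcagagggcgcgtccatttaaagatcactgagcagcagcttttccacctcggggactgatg
Ebp, chrX:16971212-16971461, plus strand: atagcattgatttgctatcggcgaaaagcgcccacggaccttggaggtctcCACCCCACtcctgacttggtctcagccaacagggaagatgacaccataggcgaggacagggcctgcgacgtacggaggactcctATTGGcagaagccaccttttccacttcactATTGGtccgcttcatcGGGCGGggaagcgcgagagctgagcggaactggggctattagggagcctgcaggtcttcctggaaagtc
Idi1, chr17:66547525-66547774, minus strand: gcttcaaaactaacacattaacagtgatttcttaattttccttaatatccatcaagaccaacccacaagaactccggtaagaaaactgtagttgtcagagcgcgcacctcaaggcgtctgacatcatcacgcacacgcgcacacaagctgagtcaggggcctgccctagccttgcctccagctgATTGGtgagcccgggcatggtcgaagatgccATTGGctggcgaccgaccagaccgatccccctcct
Abca1, chr5:72596474-72596723, minus strand: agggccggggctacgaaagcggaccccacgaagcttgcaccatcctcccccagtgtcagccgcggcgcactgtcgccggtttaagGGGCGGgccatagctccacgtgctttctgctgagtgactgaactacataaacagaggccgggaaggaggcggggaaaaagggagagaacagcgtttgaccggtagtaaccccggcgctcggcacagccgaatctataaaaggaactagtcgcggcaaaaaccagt
Between Abcg8 and Abcg5, chr6:15717731-15717935, plus strand: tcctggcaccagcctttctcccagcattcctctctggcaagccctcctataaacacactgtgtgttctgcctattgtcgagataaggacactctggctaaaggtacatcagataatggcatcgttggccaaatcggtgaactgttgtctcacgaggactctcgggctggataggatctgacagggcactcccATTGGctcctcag

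The first 4 are the 250 bases before the gene's start. The last holds all 205 bases between the start of Abcg8, which is read leftwards, and that of Abcg5, which is read rightwards, so these exporters share 1 upstream stretch with 1 CCAAT box. Over the 24 member windows of 250 bases, 18 held a CCAAT box (75%), against 34% of 33469 windows in the table and 35.6% of the 9345 windows of genes tested here. A GC box was in 19 member windows (79.2%), against 30.5% and 54.8%. The longer SREBP core TCACNCCAC, which contains the short core, was in 0 member windows and in 0.974% of all windows. The short core was in 3 member windows (12.5%), those of Acat2, Ebp and Insig1, against 4.89% and 5.08%. Both strands were searched, and a match is only a description of the letters.

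The scaled log2 signal used below is the log2 of a probe's processed signal minus the array's 75th percentile, so it compares arrays for 1 probe and not probes with each other. A probe was tested when it was well above background on every array of at least 1 group. Differences are fibrosis minus normal, from limma, with a standard error (SE) and a p-value adjusted by Benjamini-Hochberg over all 10864 genes tested, and a gene passed at an adjusted p under 0.05. Of the 30 genes, 28 were tested. Abcg8 was not well above background on any of the 6 arrays, and Soat1 was above it on 1 normal and 2 fibrosis arrays.

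Of the 28 tested genes, 0 were called higher in fibrotic liver, 6 were called lower, and the other 22 did not pass the limma test. The 6 were Insig2, Tm7sf2, Abcg5, Sc5d, Soat2 and Ebp. Among all genes tested 15.8% were called higher and 9.12% lower, against 0 of 28 and 6 of 28 of the cholesterol genes. At an unadjusted p under 0.05 the counts were 0 higher and 11 lower of 28, beside 2229 higher and 1812 lower of the 10864 genes tested. The median difference was -0.51 over the 28 genes and -0.07 over all genes, and 24 of the 28 were below 0, against 5820 of the 10864. All 3 fibrosis arrays lay below all 3 normal arrays in 11 of the 28 genes, and above them in 0. The same held for 20.9% and 22.1% of all genes tested.

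The balance of calls moved with the scaling. Over all genes 1720 were higher and 991 lower. Scaling by the array median gave 1317 higher and 2556 lower genes and a median difference of -0.42 over all genes. Scaling by E1A spike-in control probes gave 1905 higher, 240 lower and a median of 0.24. The median of the cholesterol genes moved too, to -0.86 with the array median, -0.32 with cyclic loess and -0.20 with E1A probes, where 26, 20 and 18 of the 28 were below 0. It was -0.31 over 29 genes without fibrosis array 3. The array median gave 12 lower cholesterol genes and 0 higher. The E1A probes gave 5 lower and 1 higher (Mvd, 1.39, limma adjusted p = 0.0461). Insig2, Tm7sf2, Abcg5, Sc5d and Soat2 were lower under both.

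**Figure D1:**
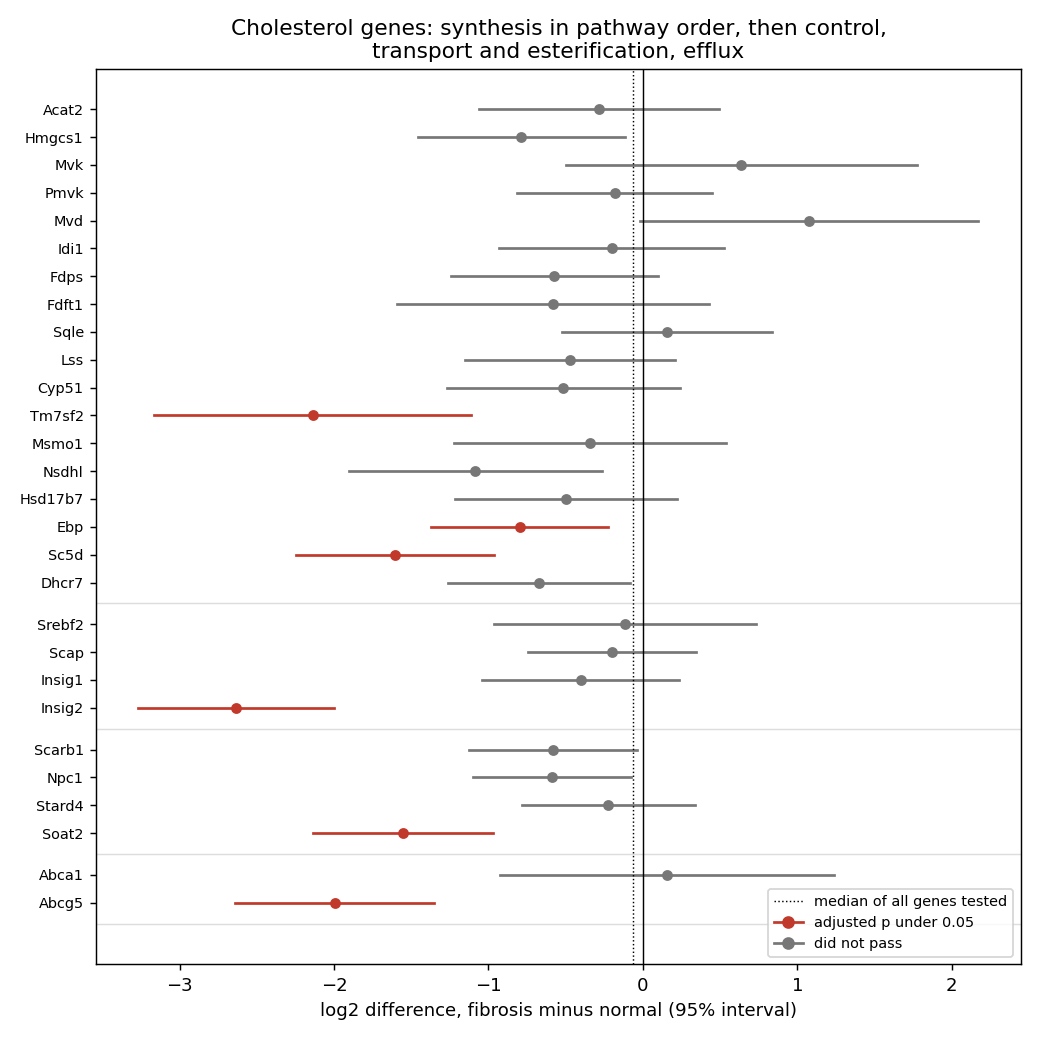
Log2 difference (fibrosis minus normal, horizontal axis) with its 95% interval for the 28 tested genes, listed in pathway order by role. The 6 genes in red passed the test and lie between -2.63 (Insig2) and -0.80 (Ebp), and the dotted line at -0.07 is the median of all genes tested.

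The largest difference was that of Insig2, which encodes a membrane protein that holds the Scap and SREBP complex in the endoplasmic reticulum. Its scaled log2 signal was 2.87, 2.49 and 2.92 in the normal livers and 0.56, 0.02 and -0.19 in the fibrotic livers. Every fibrotic liver was far below every normal one. Insig2 fell by 2.63 on the log2 scale (SE 0.28, limma adjusted p = 0.000376), a 6.2-fold difference. About 0.469% of all tested genes had a lower difference.

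Its paralogue Insig1, itself a target of SREBP2, did not pass. Its scaled log2 signals were 1.68, 2.09 and 2.08 in normal livers and 1.67, 1.86 and 1.099 in fibrotic livers, so that the groups overlapped. The difference was -0.40 ± 0.28 (SE), with a 95% interval from -1.04 to 0.23 that does not reach the interval of Insig2 (-3.27 to -1.998). The difference between these paralogues was not itself tested.

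The master regulator Srebf2, which encodes SREBP2, and its escort Scap were close to level between the groups. Srebf2 read 1.03, 0.54 and 0.25 in normal livers and 0.09, 1.24 and 0.14 in fibrotic livers, and its highest value was in fibrosis array 2. The difference was -0.12 ± 0.37 (SE), with a 95% interval from -0.96 to 0.73, and it was above 0 with cyclic loess (0.04) and E1A scaling (0.19). Scap was at -0.20 ± 0.24 (SE), interval -0.74 to 0.35, and at 0.11 with E1A scaling. These intervals are wide enough to hold moderate changes in either direction.

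Of the 18 synthesis enzymes, 3 fell, 0 rose and 15 did not pass, beside 9.12% lower and 15.8% higher over all genes tested. The median of the enzymes was -0.51. All 3 that fell act on the sterol ring after lanosterol. A split of the route at lanosterol, made after seeing the values, gave 0 called genes among the 10 steps up to lanosterol, with 1 below an unadjusted p of 0.05 and a median of -0.24. From lanosterol to cholesterol 3 of 8 were called lower, 5 of 8 were lower at an unadjusted p under 0.05 (1812 of 10864 for all genes), and the median was -0.73. The late count includes Ebp (-0.80, limma adjusted p = 0.0493), just inside the threshold. The early enzyme Hmgcs1 had nearly the same difference (-0.79, limma adjusted p = 0.0862) and was not called. Whether the early and the late steps differ was not tested.

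Tm7sf2, a reductase of the sterol ring that works just after lanosterol is demethylated, showed the largest fall among the enzymes. It read 0.44, 0.19 and -0.13 in the normal livers and -2.71, -0.91 and -2.29 in the fibrotic livers. No fibrotic liver reached the lowest normal one, and fibrosis array 2 was the least low. Tm7sf2 fell by 2.14 (SE 0.45, limma adjusted p = 0.0103), or 4.4-fold, and its promoter window is the first of those printed above.

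Sc5d, the desaturase that makes the last precursor of cholesterol in one branch of the route, was at 1.35, 1.78 and 1.53 in normal and at 0.30, 0.05 and -0.50 in fibrotic livers. Every fibrotic liver was thus well below the lowest normal one. Sc5d fell by 1.60 (SE 0.28, limma adjusted p = 0.00444), or 3.04-fold.

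Ebp, a sterol isomerase that acts before Sc5d, had a smaller difference. Its values were 3.64, 3.38 and 3.28 in normal livers and 2.36, 2.94 and 2.61 in fibrotic livers, again without overlap. The difference was -0.80 ± 0.25 (SE, limma adjusted p = 0.0493), just inside the threshold. That call was lost with quantile normalization (-0.43, limma adjusted p = 0.228), cyclic loess (-0.38, 0.285) and E1A scaling (-0.49, 0.334). It was also lost without normal array 1 (-0.69, 0.160), 2 (-0.82, 0.134) or 3 (-0.87, 0.123) and without fibrosis array 1 (-0.66, 0.135) or 3 (-0.78, 0.0645).

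Nsdhl, a dehydrogenase that helps strip methyl groups from the ring, came close to the threshold. It read 0.25, 0.91 and 0.87 in normal livers and 0.24, -0.48 and -0.99 in fibrotic livers, so fibrosis array 1 lay just under normal array 1. Its difference was -1.09 ± 0.36 (SE, limma adjusted p = 0.0583). Without fibrosis array 1 it passed (-1.41, limma adjusted p = 0.0253), as it did with the array median (-1.44, 0.0120) and with trend and robust settings (0.0358). It was smaller with E1A scaling (-0.78, limma adjusted p = 0.304), normexp (-0.74, 0.150) and without fibrosis array 3 (-0.79, 0.111).

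Dhcr7, which reduces the last precursor to cholesterol, was at -0.67 ± 0.26 (SE, limma adjusted p = 0.0950). Its fibrotic livers, at 0.72, 1.25 and 1.18, were all below the normal ones at 2.02, 1.59 and 1.56. It passed with the array median (-1.03, limma adjusted p = 0.0224), array weights (-0.82, 0.0147) and trend and robust settings (0.0495), and it was at -0.36 (0.505) with E1A scaling and -0.43 (0.265) with cyclic loess. The remaining late enzymes had overlapping groups. They were Cyp51, the lanosterol demethylase, at -0.51 ± 0.33 (SE), Hsd17b7, a ketoreductase of the demethylation complex, at -0.50 ± 0.31, and Msmo1, the methylsterol oxygenase, at -0.34 ± 0.38. Their 95% intervals together ran from -1.27 to 0.54, and Msmo1 was at 0.04 with cyclic loess.

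Among the early steps, Hmgcs1, the synthase that makes the precursor of mevalonate, stood alone in having groups that did not overlap. Its normal livers read 3.93, 3.82 and 3.87 and lay close together, while the fibrotic livers read 2.84, 3.67 and 2.75. Fibrosis array 2 was thus nearly level with the normal livers, and the other fibrotic livers were clearly lower. The difference of -0.79 ± 0.29 (SE) did not pass (limma adjusted p = 0.0862). It passed without fibrosis array 2 (-1.08, limma adjusted p = 0.0161), with the array median (-1.14, 0.0189), with array weights (-0.91, 0.00890) and with trend and robust settings (0.0314). It shrank with quantile normalization (-0.36, limma adjusted p = 0.365), cyclic loess (-0.32, 0.415) and E1A scaling (-0.48, 0.370).

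Fdft1, the squalene synthase at the branch towards sterols, showed the same array apart. It read -0.67, -0.67 and -1.09 in normal livers and -1.81, -0.33 and -2.04 in fibrotic livers, with fibrosis array 2 the highest of all 6. The difference was -0.58 ± 0.44 (SE, limma adjusted p = 0.381), and -1.12 (0.0234) without fibrosis array 2. It was -0.37 (limma adjusted p = 0.645) without fibrosis array 1, -0.26 (0.690) without fibrosis array 3 and -0.27 (0.721) with E1A scaling.

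Mevalonate kinase (Mvk) and mevalonate diphosphate decarboxylase (Mvd) were the enzymes with the highest differences. Mvd read -1.01, -1.46 and -2.03 in normal livers and -1.38, -0.38 and 0.50 in fibrotic livers. Fibrosis arrays 2 and 3 were above every normal liver, and fibrosis array 1 was among them. Mvd was at 1.08 ± 0.48 (SE, limma adjusted p = 0.139), interval -0.02 to 2.17, and it passed without fibrosis array 1 (1.56, 0.0379). It was 0.62 (limma adjusted p = 0.295) without fibrosis array 3 and 0.54 (0.279) with array weights. Mvk was at 0.64 ± 0.49 (SE), and only fibrosis array 3, at -0.78, lay above the normal livers, whose highest was -2.29.

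The other early enzymes were near the median of all genes or moderately below it, and none passed in the comparison as scaled here. Farnesyl diphosphate synthase (Fdps) was at -0.57 ± 0.29 (SE), passing only with the array median (-0.93, limma adjusted p = 0.0360) and at -0.21 (0.640) with cyclic loess, and lanosterol synthase (Lss) at -0.47 ± 0.30. Acat2, the thiolase of the cytosol, was at -0.29 ± 0.34, Idi1, the isomerase of the isoprenoid unit, at -0.20 ± 0.32, and Pmvk, the phosphomevalonate kinase, at -0.18 ± 0.27. Squalene epoxidase (Sqle), a rate-controlling step after squalene, was at 0.15 ± 0.30, and its 95% interval from -0.52 to 0.83 covers changes in both directions. Acat2, Idi1, Pmvk and Sqle changed sign under at least 1 other scaling.

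**Figure D2:**
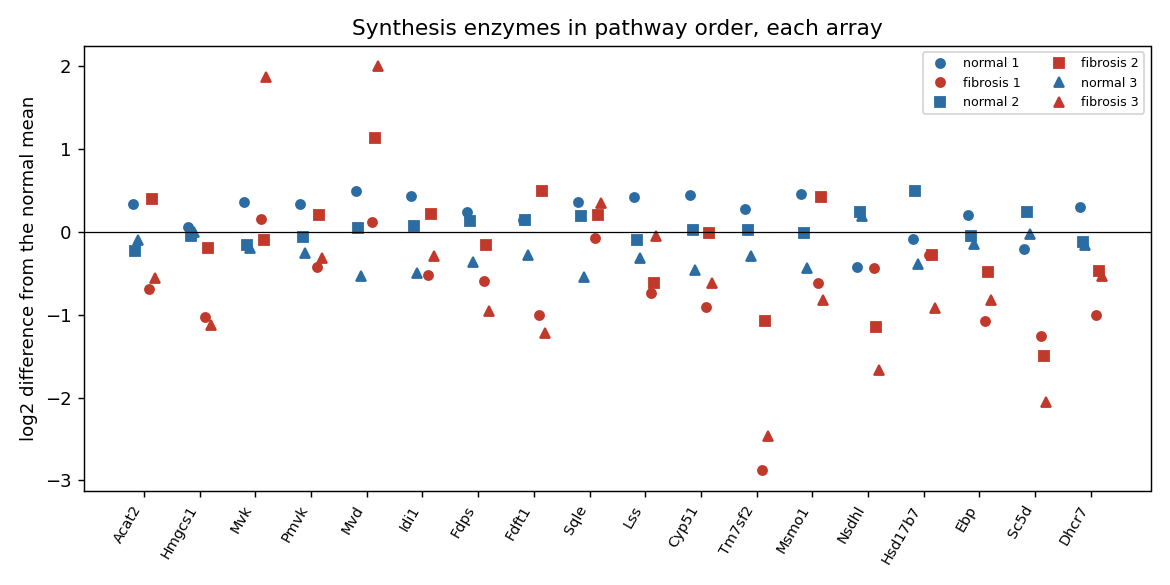
Log2 difference of each array from the normal mean (vertical axis) for the 18 synthesis enzymes in pathway order, with normal livers in blue and fibrotic livers in red. Tm7sf2 and Sc5d have all 3 red points far below the blue ones, while fibrosis array 2 (red squares) lies nearest to the normal livers for many enzymes.

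The synthesis enzymes also varied together among rats of the same group, a pattern noticed in the values and not tested. Normal array 1 was the highest normal liver for 14 of the 18 enzymes and normal array 3 the lowest for 14, against 40.9% and 32.2% of all genes tested. In the fibrotic livers array 2 was the highest for 11 of 18 (34.6% of all genes). The median deviation of the 18 enzymes from the normal mean was 0.31, 0.02 and -0.29 on normal arrays 1 to 3 and -0.66, -0.13 and -0.72 on fibrosis arrays 1 to 3. For all genes these medians lay between -0.10 and 0.02. The SD between normal livers had a median of 0.31 over the enzymes and 0.22 over all genes, and the SD between fibrotic livers 0.43 and 0.41.

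Genes of uptake, transport and esterification were called lower in 1 of 4 tested cases, beside 9.12% of all genes tested. Their median of -0.58 covers only these 4 genes, and that of the 18 synthesis enzymes was -0.51. Soat2, the enzyme of hepatocytes and gut that esterifies cholesterol for storage and secretion, fell. It read -0.14, -0.01 and 0.11 in normal livers and -1.17, -1.81 and -1.72 in fibrotic livers and did not overlap. The fall was 1.55 (SE 0.25, limma adjusted p = 0.00333), or 2.94-fold. Soat1, the isoform most other cells use, was near background, with readings of -7.05, -6.29 and -6.67 in normal livers and -5.24, -5.86 and -7.41 in fibrotic livers. It did not pass the filter on signal with all arrays kept.

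Scarb1, the receptor that takes cholesterol esters from high-density lipoprotein, read 1.79, 1.90 and 1.84 in normal livers and 1.18, 1.58 and 1.03 in fibrotic livers. The groups did not overlap, and the difference was -0.58 ± 0.24 (SE, limma adjusted p = 0.113). It passed with the array median (-0.94, limma adjusted p = 0.0198) and array weights (-0.63, 0.0223). It was smaller with quantile normalization (-0.36, limma adjusted p = 0.317), cyclic loess (-0.32, 0.363) and E1A scaling (-0.27, 0.645). Npc1, which moves sterol out of lysosomes, was similar at -0.59 ± 0.22 (SE, limma adjusted p = 0.0917), with normal livers at 0.81, 0.99 and 0.90 and fibrotic livers at 0.10, 0.47 and 0.37. It passed with the array median (-0.94, limma adjusted p = 0.0185), with normexp background correction (-0.76, 0.0296) and with array weights (-0.75, 0.0108). E1A scaling gave -0.28 (limma adjusted p = 0.625) and cyclic loess -0.42 (0.209).

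Stard4, a carrier of sterol between membranes, was at -0.22 ± 0.24 (SE) for its brighter probe, with overlapping groups. Its dimmer probe read -1.47, -1.64 and -1.33 in normal livers and -2.15, -2.43 and -2.19 in fibrotic livers, without overlap. When the dimmest probe stood for each gene, Stard4 passed at -0.77 (limma adjusted p = 0.0416). The probes of Fdps (-0.57 and -0.56), Npc1 (-0.59 and -0.77) and Scarb1 (-0.58 and -0.63) gave closer values.

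**Figure D3:**
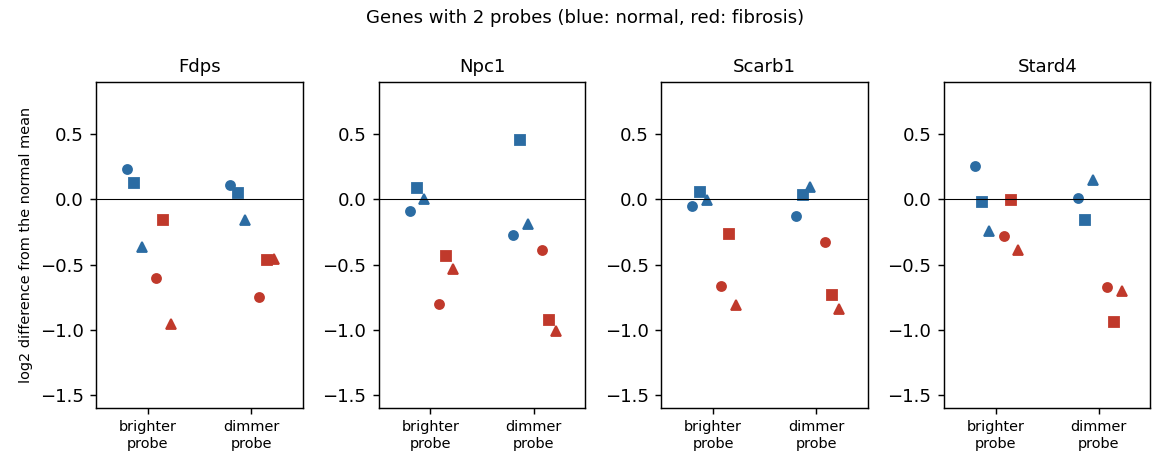
Log2 difference of each array from the normal mean (vertical axis) for the brighter and the dimmer probe of the 4 genes with 2 probes, normal livers in blue and fibrotic livers in red. The probes of Stard4 differ most, at -0.22 and -0.77, and those of Fdps least.

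Among the exporters, Abcg5 fell and Abca1 did not pass. Abcg5 and Abcg8 together form the pump that secretes sterol into bile. Abcg5 read 1.46, 1.03 and 1.70 in normal livers and -0.91, -0.24 and -0.64 in fibrotic livers. Every fibrotic liver was thus well below every normal one. The fall was 2.00 (SE 0.28, limma adjusted p = 0.00156), or 3.99-fold, and 1.21% of all tested genes had a lower difference.

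The partner gene Abcg8, which starts 205 bases away across the stretch printed above, gave no measurement. Its probe read between -9.35 and -8.06 on the 6 arrays, not well above background on any, so no level of Abcg8 can be set beside that of Abcg5.

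Abca1, which loads cholesterol onto apolipoprotein for high-density lipoprotein, read -2.004, -1.08 and -1.86 in normal livers and -1.51, -2.41 and -0.55 in fibrotic livers, with overlapping groups. Its difference was 0.16 ± 0.47 (SE), and the 95% interval from -0.93 to 1.24 allows changes either way. Quantile normalization gave -0.04, and scaling to the array median gave -0.20. The 3 tested genes of uptake at the cell surface and efflux (Scarb1, Abca1 and Abcg5) had a median of -0.58.

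**Figure D4:**
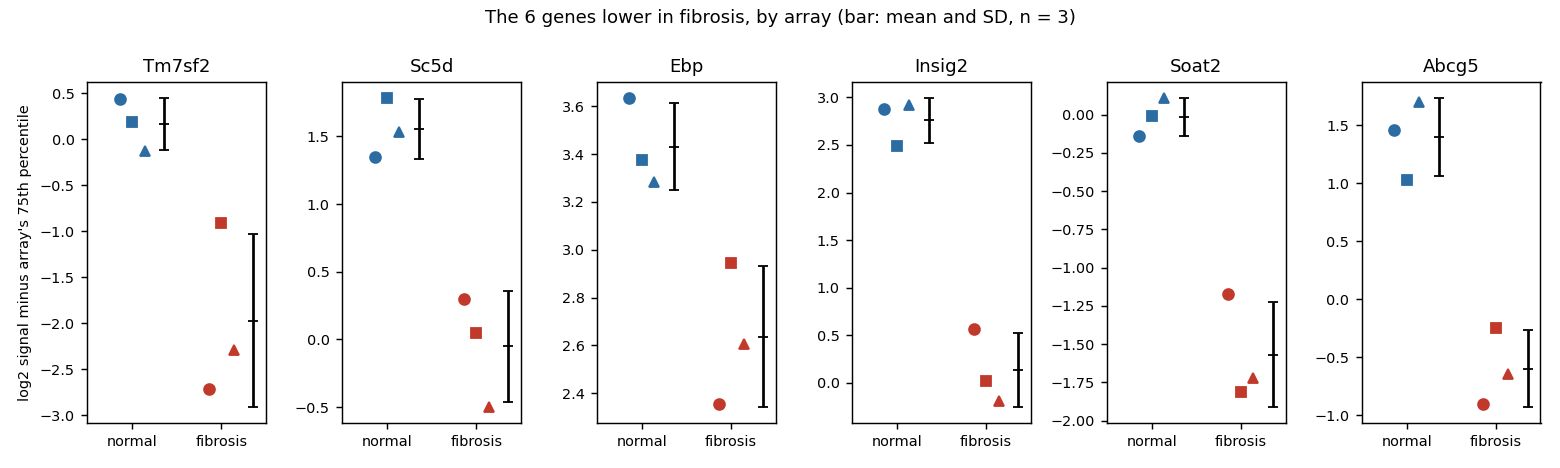
Scaled log2 signal (vertical axis, with its own range in each panel) of the 6 genes that passed the test, 3 normal and 3 fibrotic livers each, with the mean and SD beside the points. In every panel the fibrotic livers lie below the normal ones, and the gap is smallest for Ebp.

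Of these 6 falls, those of Insig2 and Abcg5 passed in each of the 19 alternatives run at the threshold of 0.05, with values from -2.99 to -2.31 and from -2.35 to -1.69. Tm7sf2 also passed in those 19 but not at the stricter threshold of 0.01, with values from -2.67 to -1.77. Sc5d and Soat2 passed in each of the 18 alternatives that tested them, from -1.96 to -1.30 and from -1.91 to -1.25. They could not be tested once spots that carry a software mark (uneven or outlying) were dropped, since 100% of their spots on normal arrays were marked. On fibrosis arrays 100% of the Sc5d spots and 66.7% of the Soat2 spots were marked, so the fall of Sc5d rests on marked spots alone.

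Other genes of the pathway moved both ways, beside 15.8% called higher and 9.12% called lower over all genes tested. Of 15 tested genes among the other synthesis and control genes, 1 rose and 3 fell, with a median of -0.53. Acat1, the mitochondrial thiolase, was among those that fell, at -1.48, as was Por, which feeds electrons to sterol oxygenases, at -1.15.

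In the list of other uptake genes 1 of 15 rose and 3 fell, beside 15.8% and 9.12% of all genes tested. The median of the list was -0.21. Sort1, a sorting receptor, was at 1.26, Stard5, a sterol carrier, at -1.27 and Lipc, hepatic lipase, at -0.89.

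Of 16 other genes of efflux, lipoprotein assembly and oxysterol receptors, 0 rose and 2 fell, with a median of -0.39. For this list and the next, the shares over all genes tested were 15.8% higher and 9.12% lower. Those that fell here were Lcat, which esterifies cholesterol in plasma, at -1.15 and the bile salt pump Abcb11 at -1.06. In the conversion of cholesterol to oxysterols and bile acids, 2 of 8 rose and 5 fell, with a median of -0.87. Cyp7b1 (2.34) and Ch25h (1.26), both hydroxylases that make or use oxysterols, rose, and Cyp39a1 (-2.37), Cyp8b1 (-1.56) and Hsd3b7 (-1.46) fell furthest. Cyp39a1 was well above background on 2 of the 3 fibrosis arrays. The calls of Cyp7b1, Ch25h and Cyp39a1 held in every alternative that tested them at the threshold of 0.05. Those of Acat1, Por, Sort1, Stard5, Lipc, Lcat, Abcb11, Cyp8b1 and Hsd3b7 were each lost without at least 1 array and under at least 1 other scaling, with the values given in the closing section.

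Markers of the cells in the tissue moved beside these genes. All 12 hepatocyte markers were well above background on every array. Of these 12, 2 fell (Apoa2 at -1.62 and Apoh at -0.93), 9 had lower values in every fibrotic liver, and the median was -0.74. Over all genes tested 15.8% were called higher and 9.12% lower, and 20.9% had lower values in every fibrotic liver. The scaled signal, taken back from log2 to the linear scale and summed over the hepatocyte markers, was 237 to 258 in normal livers. It was 138 to 194 in fibrotic livers, and the sums of the other marker lists are on the same linear scale. Of 9 tested bile duct markers 8 rose, among them Krt7 (5.65) and Sctr (5.47), and their summed signal went from between 0.612 and 0.788 to between 8.87 and 10.3. Stellate cell and myofibroblast markers rose in 7 of 9 (Col1a1 at 3.19, Des at 3.01), with sums of 8.72 to 13.0 and 21.4 to 41.3.

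Macrophage markers were called in 2 of 10 (Gpnmb at 1.60 and Cd14 at -1.33), with sums of 33.0 to 38.0 in normal and 40.5 to 41.7 in fibrotic livers. The shares called over all genes tested were 15.8% higher and 9.12% lower. Endothelial markers were called in 2 of 6 (Flt1 at 2.44 and Kdr at -0.75), with sums of 11.6 to 12.5 and 7.28 to 10.5. Their median difference was -0.04, with 3 above 0 and 3 below. A sum weighs bright probes most, and in normal livers Kdr averaged 2.99 and Flt1 -5.64. Among lymphocyte markers 1 of 8 changed, with sums of 2.14 to 3.78 and 3.12 to 3.84. Of 4 genes of steroid-making gland cells, kept as a tissue check, only Cyp17a1 passed the filter on signal, with a difference of -1.22. The rest were below the filter, so gland cells cannot be read from this list. In these tissue blocks fewer hepatocytes and less RNA per hepatocyte cannot be told apart, and the part of cell composition in the differences of the cholesterol genes was not tested.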

How the data were processed

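Total RNA from liver tissue of 6 rats was labelled with Cy3 and hybridised to Agilent arrays of 1 colour, per the labels' protocols. The authors deposited the intensity of each spot as written by Agilent Feature Extraction 11.5.1.1, per the file headers, and the processed signal is background-subtracted. All 6 arrays lay on 1 slide scanned together, with fibrosis arrays 2 and 3 in its second row and the other 4 arrays in its first.

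Control spots were left out, log2 of the processed signal was taken with no pseudocount, the 75th percentile of each array was subtracted, and spots of a probe were averaged. Spots that the software marked as non-uniform or outlying were kept. RefSeq accessions named 18355 of 30367 probes through the GRCr8 gene table, giving 15443 genes, and 12012 probes stayed without a symbol. A probe was tested if at least 0.5 of its spots were well above background on all arrays of 1 group, and the tested probe with the highest mean stood for its gene. limma 3.58.1 in R 4.3.3 compared the groups with moderated statistics over 10864 genes, and p-values were adjusted by Benjamini-Hochberg. The procedure was tested on simulated data. Figures were drawn with Python 3.11.15 and matplotlib 3.10.9. The number of arrays, 3 per group, limits the precision.

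The pathway genes, the other lists and the markers were chosen with earlier results of these data known. Every pathway gene is named. Of each list of other pathway genes, up to 3 called genes of the largest increase and 3 of the largest decrease are named, and of each marker list up to 2 called genes, except that some of these genes are not reported here. The alternatives were other scalings (quantile, array median, cyclic loess, E1A controls), normexp background correction with an offset of 50 on the median signal, filters on dim probes, probe rules, marked spots left out, other variance models, array weights, a stricter threshold of 0.01 and each array left out. Running them on the other pathway genes was added after the data were seen.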

Additional observations from a re-analysis of the deposited data

How the results depend on the processing

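The calls of Insig2, Abcg5, Tm7sf2, Sc5d and Soat2 held in every alternative that tested them at the threshold of 0.05, while that of Ebp did not, and the causes of such changes were not tested. The number of lower cholesterol genes was 12 with the array median and 10 with array weights, and 5 to 8 when 1 array was left out. The number of higher ones was 1 with E1A controls, and 0 to 1 with 1 array left out. With 1 array left out these were Mvd without fibrosis array 1 and Soat1 without fibrosis array 3. Soat1 passed the filter on signal only once fibrosis array 3, its lowest fibrotic reading (-7.41), was left out. With no filter on dim probes Soat1 was tested on all 6 arrays and was not called. Leaving out marked spots tested 14 of the genes. Over all genes, higher calls numbered 1037 at the threshold of 0.01 and 1115 to 1959 with 1 array left out. Lower calls numbered 429 without marked spots, 2556 with the array median, 240 with E1A controls, 651 with no filter, 1999 with array weights, 293 at 0.01 and 344 to 1264 with 1 array left out.

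Genes that did not pass changed sign as follows. Abca1 was at -0.37 without marked spots, -0.035 after quantile normalization and -0.20 relative to the array median, and from -0.31 to 0.62 with 1 array left out. For Idi1 quantile normalization gave 0.050, cyclic loess 0.087 and E1A 0.11, and its range was -0.45 to 0.014 with 1 array left out. Srebf2 was at 0.043 with loess and 0.19 with E1A, and from -0.49 to 0.10 with 1 array left out. Sqle was at -0.20 with the array median, and from -0.12 to 0.33 with 1 array left out. With cyclic loess Msmo1 was at 0.038 and Pmvk at 0.016. With E1A controls Acat2 was at 0.023, Pmvk at 0.13, Scap at 0.11 and Stard4 at 0.085.

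Among the other pathway genes, the highest limma adjusted p with 1 array left out was 0.124 for Acat1 (-1.28, without normal array 3), 0.0738 for Por (-1.09, without normal array 3), 0.11 for Sort1 (1.16, without normal array 2), 0.0801 for Stard5 (-1.03, without normal array 3), 0.155 for Lipc (-0.81, without normal array 3), 0.0715 for Lcat (-1.12, without normal array 3), 0.0646 for Abcb11 (-1.05, without normal array 3), 0.15 for Cyp8b1 (-1.33, without normal array 2) and 0.0626 for Hsd3b7 (-1.39, without normal array 3). E1A scaling ended the calls of Acat1 (-1.18, limma adjusted p = 0.150), Por (-0.84, 0.134), Stard5 (-0.96, 0.131), Lipc (-0.58, 0.355), Lcat (-0.84, 0.136), Abcb11 (-0.75, 0.210), Cyp8b1 (-1.25, 0.139) and Hsd3b7 (-1.15, 0.107). Sort1 was at 0.56 (0.204) with normexp and 0.91 (0.0646) with the array median, Lipc at -0.52 (0.235) with cyclic loess, and Cyp39a1, still called, at -1.41 with normexp. No paired analysis was possible because nothing in the labels pairs rats across the groups: the 6 rats are different animals, and replicate numbers 1 to 3 only follow sample order.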
